A study of Mus musculus with 8 samples.

Results

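The genes of the cytosolic ribosome were taken from tables of RNA levels by their symbols, as every symbol made of Rpl or Rps and a number with its usual suffix letters, together with the Rplp genes and Rpsa. The rule matched 86 of the 24306 symbols analysed. Rps6kl1, a gene named for its likeness to the kinases of ribosomal protein S6, matched by spelling only and is given apart. The other 85 were 77 core genes, of which 31 encode proteins of the 40S subunit and 46 proteins of the 60S subunit with its stalk, and 8 paralogs, which are related copies of a core gene at another locus. They lie on 19 chromosomes in the tables, which use mouse build mm9, with 14 of the 86 on chromosome 7.

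The samples were mouse E14 embryonic stem cells (ESC) and neural progenitor cells (NPC) made from them, each as cells labelled knockout for Wdr68 and as wild-type E14 cells, with 2 libraries in each of the 4 groups. The protein WDR68 has WD40 repeats, and the series links it to the Polycomb complex PRC1-AUTS2. Its gene is listed as Dcaf7. All groups come from E14 cells that were grown with LIF and inhibitors of Mek and GSK3, on feeder cells or gelatin. NPC of both genotypes had gone through hanging drops of 500 cells for 2 days, suspension culture for 2 days and retinoic acid for 4 days, and no sort of the cells is described. How the knockout was made, and from how many clones, is not given in the sources used here.

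Each cytosolic ribosome holds a single copy of nearly all of its proteins, in a small subunit that reads the mRNA and a large subunit that joins the amino acids. The proteins are made in the cytoplasm and carried to the nucleolus, where they are assembled on ribosomal RNA, so their genes are usually expressed at high and similar levels in all cells. Their mRNAs begin with a run of pyrimidines, the 5′ terminal oligopyrimidine (TOP) tract, through which mTOR signalling sets their translation. Cultured ESC divide fast and have a high demand for new ribosomes. Paralogs differ from core genes in that several are used mainly in certain tissues, such as Rpl3l in striated muscle and Rpl10l in male germ cells.

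The paralogs are shown first by sequence, since how far the RNA of a copy can be told from that of its partner depends on the bases that differ. Of the 8 pairs, 4 join an autosomal copy to a partner on the X chromosome (Rpl10l with Rpl10, Rpl36al with Rpl36a, Rpl39l with Rpl39, and Rps4l with Rps4x), and these partners are the 4 members that the tables place on chromosome X. Rpl10l has a single exon in the GENCODE M21 annotation of GRCm38, against 7 exons in Rpl10. The lines below give the first 60 coding bases from that annotation, read 5′ to 3′, and capitals mark the bases that differ within a pair.
Rpl10l (chromosome 12): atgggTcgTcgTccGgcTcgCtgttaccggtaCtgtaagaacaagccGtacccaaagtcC
Rpl10 (chromosome X): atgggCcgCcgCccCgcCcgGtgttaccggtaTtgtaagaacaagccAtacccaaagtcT
Rpl36al (chromosome 12): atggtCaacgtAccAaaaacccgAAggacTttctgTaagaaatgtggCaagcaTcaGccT
Rpl36a (chromosome X): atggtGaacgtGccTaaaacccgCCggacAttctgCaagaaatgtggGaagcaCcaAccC
Rpl39l (chromosome 16): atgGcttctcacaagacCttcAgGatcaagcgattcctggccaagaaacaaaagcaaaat
Rpl39 (chromosome X): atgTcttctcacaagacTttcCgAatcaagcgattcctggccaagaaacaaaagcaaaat
Rps27l (chromosome 9): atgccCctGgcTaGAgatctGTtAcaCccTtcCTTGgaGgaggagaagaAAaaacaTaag
Rps27 (chromosome 3): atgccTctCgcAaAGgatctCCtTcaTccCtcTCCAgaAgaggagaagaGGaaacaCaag
Over whole coding sequences, identity to the partner was 87.9% for Rpl36al, 85.3% for Rpl39l, 84.8% for Rpl10l, 76.1% for Rps27l, 74.4% for Rpl3l, 70.2% for Rpl22l1 and 62.6% for Rpl7l1. Rps4l is annotated as a transcribed processed pseudogene, and its transcript matched the Rps4x coding sequence at 80.1% of 789 aligned bases. The longest run of identical bases in a pair was 38, between Rpl39l and Rpl39. How the authors assigned reads that fit more than 1 place is not given in the sources used here, and the mouse genome holds many processed pseudogenes of these genes, so the levels of core genes with near-identical copies are uncertain by an amount not measured here.

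Of the 6 core genes that passed as lower in wild-type NPC under every scaling of the libraries, as described further on, 5 have a promoter shown next, and the other is Rpl8. The RefSeq promoter table (GRCm38.p6) matched 64 of the 85 ribosomal protein genes. Each line reads from 100 bases before the transcript start to 10 bases from it on the coding strand. Capitals mark an ETS core (CGGAAG) or the BANP-type motif TCTCGCGA, named for the factor BANP, on either strand.
Rpl4 (chr9:64173287-64173396, + strand): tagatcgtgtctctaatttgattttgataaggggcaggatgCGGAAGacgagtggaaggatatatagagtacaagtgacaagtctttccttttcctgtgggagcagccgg
Rpl6 (chr5:121204401-121204510, + strand): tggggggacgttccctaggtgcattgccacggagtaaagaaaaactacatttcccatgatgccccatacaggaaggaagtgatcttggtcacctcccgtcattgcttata
Rpl7a (chr2:26910707-26910816, + strand): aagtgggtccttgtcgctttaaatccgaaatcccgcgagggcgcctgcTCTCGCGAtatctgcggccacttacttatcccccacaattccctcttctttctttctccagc
Rplp0 (chr5:115559367-115559476, + strand): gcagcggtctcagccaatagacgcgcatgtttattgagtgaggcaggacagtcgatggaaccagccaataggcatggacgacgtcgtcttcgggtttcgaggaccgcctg
Rps2 (chr17:24719963-24720072, + strand): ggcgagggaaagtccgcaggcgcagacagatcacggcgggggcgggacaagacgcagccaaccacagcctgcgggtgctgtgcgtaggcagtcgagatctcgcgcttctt
The capitals occur in the windows of Rpl4 and Rpl7a only, which says no more than that these letters are not in the other 3. Over the whole table window, from 250 bases before to 50 after the start, an ETS core lay in 67.2% of the 64 member promoters, against 31.6% of the promoters of 9909 tested genes and 17.2% of all 27025 promoters. The BANP-type motif TCTCGCGA lay in 15.6% of member promoters, against 2.34% of those of tested genes and 1.08% of all. A YY1-type motif (CCATNTT) was in 31.2% of member promoters, 14.9% of those of tested genes and 16.3% of all. The GC box (GGGCGG) was in 60.9%, 65.4% and 35.9% of these sets, the TATA box (TATAAA) in 9.38%, 6.75% and 14.2%, and the E-box (CACGTG) in 7.81%, 10.3% and 7.24%. A run of at least 10 pyrimidines on the coding strand between 15 bases before and 30 after the start was present in 29.7% of member promoters and in 7.34% of both other sets. All motifs but the last were searched on both strands, and a match is no evidence of binding.

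The RNA was poly(A)-selected and sequenced with a kit that keeps the strand, and levels are in FPKM, which are fragments divided by transcript length and by library size, so that genes of different length can be set side by side. The bounds in the tables imply 5996677 to 7942644 fragments per library, of which 5.78% to 8.10% were on the ribosomal protein genes. The level of Dcaf7 was 8.4 and 9.0 FPKM in knockout NPC, 27.2 and 29.6 in wild-type NPC, 2.8 and 2.3 in knockout ESC, and 12.4 and 14.2 in wild-type ESC. Pluripotency markers (7 genes) summed to 9.32 to 13.1 FPKM in knockout NPC, 7.21 to 14.6 in wild-type NPC, 3852 to 4138 in knockout ESC and 3562 to 3661 in wild-type ESC. Neural progenitor markers (7 genes) summed to 32.3 to 33.5 FPKM in knockout NPC, 201 to 207 in wild-type NPC, 81.7 to 81.8 in knockout ESC and 86.4 to 97.9 in wild-type ESC, with Sox1 and Hes5 under 1 in knockout NPC. Neuron markers (5 genes) summed to 10.9 to 16.1 FPKM in knockout NPC, 302 to 320 in wild-type NPC, 115.1 to 115.2 in knockout ESC and 118.08 to 118.11 in wild-type ESC. On both neural lists the sums of libraries labelled knockout NPC were thus below those of ESC, and those of wild-type NPC above. Single genes did not all follow the sums. Pax6 and Zic1 of the progenitor list and Dcx, Elavl3 and Map2 of the neuron list went another way. They were under 1 FPKM in both libraries of each ESC group, and not in both libraries of knockout NPC. Embryonic erythroid markers (6 genes) summed to 957 to 1301 FPKM in knockout NPC, 83.8 to 152 in wild-type NPC, 1.97 to 2.47 in knockout ESC and 0.210 to 0.717 in wild-type ESC, with Gata1 and Klf1 under 1 in all groups. Endothelial markers (5 genes) summed to 27.4 to 27.7 FPKM in knockout NPC, 10.4 to 11.98 in wild-type NPC, 24.5 to 25.7 in knockout ESC and 24.0 to 25.1 in wild-type ESC. Of these genes Cdh5, Kdr and Emcn were under 1 in both libraries of each ESC group, and none was so in knockout NPC. Heart muscle markers (3 genes) summed to 5.75 to 6.39 FPKM in knockout NPC, with Myh6 and Nkx2-5 under 1, and to less than 1 in every other library. Markers of astrocytes and oligodendrocytes (5 genes) summed to 4.54 to 5.00 FPKM in knockout NPC, 4.78 to 4.95 in wild-type NPC, 1.92 to 2.45 in knockout ESC and 1.84 to 2.52 in wild-type ESC. Fibroblast markers (8 genes), which feeder cells would carry, summed to 70.3 to 83.0 FPKM in knockout NPC, 96.4 to 108 in wild-type NPC, 1.72 to 2.12 in knockout ESC and 1.89 to 2.52 in wild-type ESC. Marker levels of the libraries labelled NPC thus differed between genotypes, and fewer cells of a type and less RNA per cell cannot be told apart in these bulk samples. The series states duplicates and does not say whether they were separate cultures, so the p-values measure how far these libraries differ, and that spread may be only technical.

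The 85 ribosomal protein genes held 14.2% to 17.2% of all FPKM in a library. The median level of the core genes was 1011 and 1024 FPKM in the knockout NPC libraries, 1033 and 1129 in wild-type NPC, 1272 and 1419 in knockout ESC, and 1174 and 1260 in wild-type ESC. Both NPC groups lay below both ESC groups, and the highest library was library 2 of knockout ESC. Of the 77 core genes, 66 to 72 reached 500 FPKM in a library. With 2 libraries a group, an exact permutation test of such a single value cannot reach p = 0.05, so none is given.

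**Figure D1:**
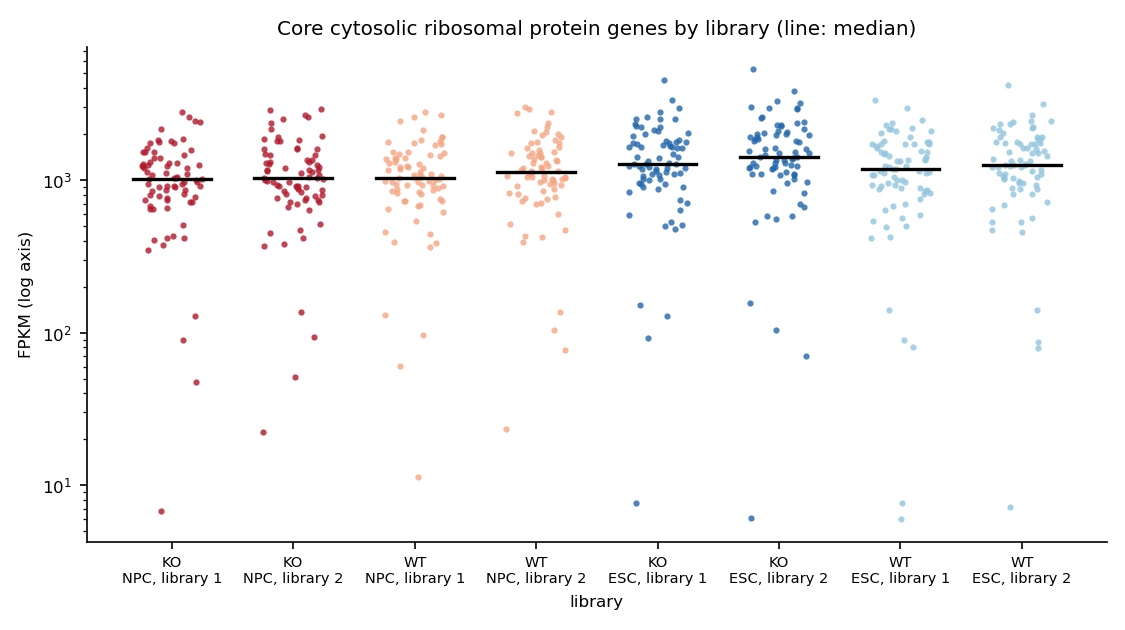
FPKM (log axis) of the core ribosomal protein genes in each of the 8 libraries, 1 point per gene with FPKM of at least 1 and a line at the median of all 77. The medians lie between 1011 and 1129 FPKM in the 4 NPC libraries and between 1174 and 1419 FPKM in the 4 ESC libraries, and 3 or 4 genes per library sit at 100 FPKM or less.

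The highest core gene was Rplp1, an acidic protein of the stalk that recruits elongation factors, with a mean of 3560 FPKM over the 8 libraries. It stood at 2594 and 2886 FPKM in knockout NPC, 2680 and 3008 in wild-type NPC, 4488 and 5296 in knockout ESC, and 3358 and 4166 in wild-type ESC. Its ESC libraries were all above its NPC libraries. Rpl23a and Rpl32, both of the 60S subunit, followed with means of 2743 and 2734 FPKM. The order of the core genes by level was nearly the same in every group. Over the 75 core genes with FPKM of at least 10 in all libraries, Spearman's rho between group means was 0.983 for knockout and wild-type NPC, 0.977 for knockout and wild-type ESC, 0.926 for knockout NPC and ESC, and 0.924 for wild-type NPC and ESC. Genes share transcript models and libraries here, so these values describe the order and carry no test. The 40S genes took 41.8% to 43.7% of the summed core FPKM in each library.

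The lowest core genes were Rpl26, Rpl30 and Rpl34, with means of 0.751, 11.6 and 75.6 FPKM, and each shares its span with a second entry. Rpl26, which binds the Trp53 mRNA and sits near the exit tunnel of the 60S subunit, is on chromosome 11 from 68715068 to 68718036 and was at or close to 0 in 7 of 8 libraries and at 5.997 in library 1 of wild-type ESC. The entry Gm15772 covers nearly the same bases (68715091 to 68718036). Its level was 1874 and 1706 FPKM in knockout NPC, 1691 and 1809 in wild-type NPC, 1676 and 1931 in knockout ESC, and 1544 and 1484 in wild-type ESC. Rpl30, on chromosome 15, had 6.14 to 23.3 FPKM beside 1034 to 1717 for Gm12191 on the same span. Rpl34, on chromosome 3, had 47.7 to 129 FPKM beside 1056 to 1433 for Rpl34-ps1. Most of the FPKM on these 3 spans thus stand under another symbol, and which of the 2 entries the RNA came from cannot be told from the tables.

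Rps27, a zinc-finger protein of the 40S subunit on chromosome 3 from 90016589 to 90017570, was the core gene that varied most between libraries of a group after Rpl26. It had 419 and 2603 FPKM in knockout NPC, 1033 and 1007 in wild-type NPC, 2238 and 1557 in knockout ESC, and 593 and 1919 in wild-type ESC. The entry Rps27rt on the same bases had 1874 and 8.90 FPKM in knockout NPC, 1848 and 1921 in wild-type NPC, 748 and 1565 in knockout ESC, and 1832 and 552 in wild-type ESC. The entries changed places between libraries, with Rps27 far above in library 2 of knockout NPC, Rps27rt far above in library 1, and both alike in library 2 of knockout ESC. Their sum ran only between 2293 and 3122 FPKM, a ratio of 1.36 between the highest and lowest library against 6.22 for Rps27 alone. The sums of the other 3 pairs had ratios of 1.301 to 1.656. With the entries summed, Rps27 gave 2293 and 2612 FPKM in knockout NPC and 2880 and 2929 in wild-type NPC, against 2986 and 3122 in knockout ESC and 2426 and 2471 in wild-type ESC. The merged values were added after the data were seen, and changes of these 4 genes are given from them where they matter.

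**Figure D2:**
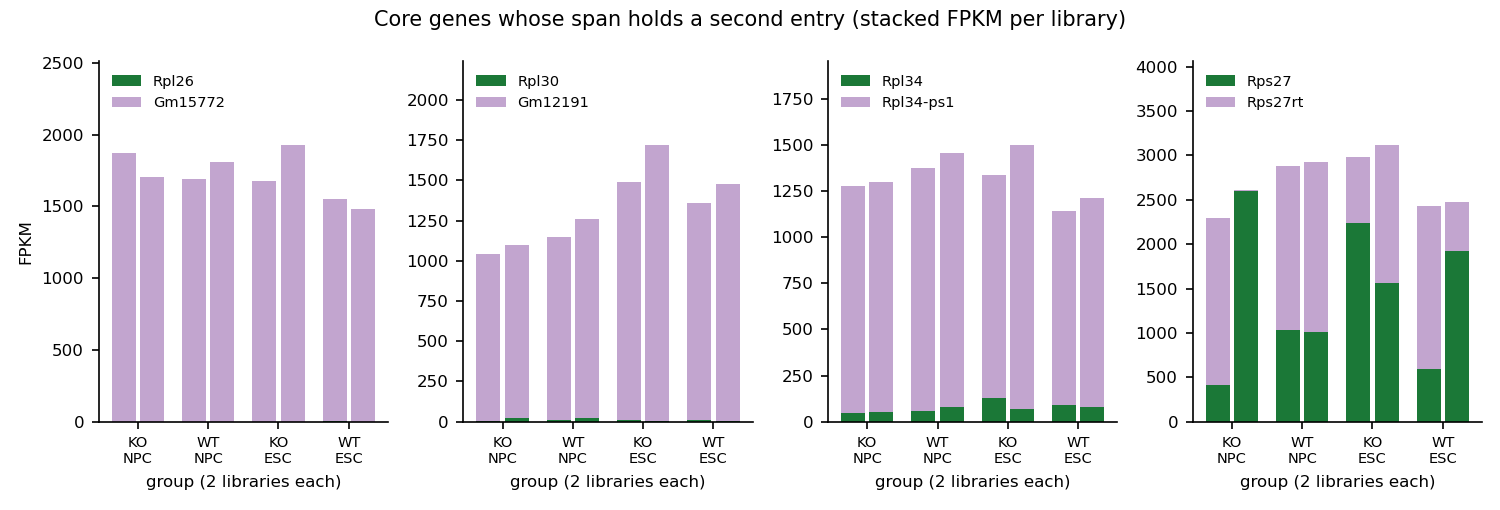
FPKM of 4 core genes (green) with the entry that shares their span stacked on top (purple), in 2 libraries for each of the 4 groups. Rpl26, Rpl30 and Rpl34 form a sliver at most of each bar, while the Rps27 share ranges from 419 to 2603 FPKM under sums of 2293 to 3122.

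Rps15a, of the 40S subunit, had 81.0 to 105 FPKM, yet its bounds imply 3731 to 5875 fragments, close to the core median of 5720. The tables place it on chromosome 7 from 125247890 to 125259661. Rpl22 had 129 to 158 FPKM, and its bounds imply 1189 to 1461 fragments. Its entry has 2 start sites, and the reading of the bounds was checked only on entries with 1. Small RNA genes are nested in many members, with 37 entries of small nucleolar RNAs and microRNAs inside 24 of them, and whether reads of the host were counted for the nested gene was not tested.

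The paralogs held the largest falls between ESC and NPC. In both genotypes 7 of the 8 passed as lower in NPC, by limma with Benjamini-Hochberg adjustment over 13318 genes, and Rpl22l1 passed as higher in wild-type cells. Over all 85 members tested, 66 passed as lower and 0 as higher in knockout NPC against knockout ESC, where 28.8% of all tested genes were called lower and 41.6% higher. In wild-type cells 32 passed as lower and 4 as higher, against 31.1% and 41.6% of all genes. Changes are differences of log2(FPKM + 1) with their standard error, which understates the change of genes with low FPKM, and levels are means ± SD of 2 libraries.

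Rpl10l, the autosomal copy of Rpl10 that serves in place of the silenced X-linked gene in mouse spermatocytes, lies on chromosome 12 from 67384366 to 67385388. It had 0.4 and 0.2 FPKM in knockout NPC and 83.3 and 86.7 in knockout ESC, and it had 0.4 and 0.0 FPKM in wild-type NPC and 84.0 and 115.8 in wild-type ESC. The NPC libraries were near 0 in both genotypes and the ESC libraries far above them. The difference was -6.04 ± 0.21 (adjusted p = 6.42e-07) in knockout and -6.40 ± 0.21 (adjusted p = 5.38e-07) in wild-type cells. Rpl10, which is built in last to complete the 60S subunit, stood at 1231 and 1216 FPKM in knockout NPC against 1424 and 1622 in knockout ESC, and at 1264 and 1323 in wild-type NPC against 1378 and 1501 in wild-type ESC. Rpl10 fell in knockout cells (-0.31 ± 0.09, adjusted p = 0.0173) and did not pass in wild-type cells (-0.15 ± 0.09, adjusted p = 0.164). The knockout call of Rpl10 was lost without library 2 of knockout ESC and without either library of knockout NPC (adjusted p = 0.0836, 0.0669 and 0.0786). Of the summed FPKM of the pair, Rpl10l made up 5.07% to 5.52% in knockout ESC and 5.74% to 7.16% in wild-type ESC, and at most 0.0341% in any NPC library.

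Rpl39l, the copy of Rpl39 at the exit tunnel that is known from mouse germ cells, lies on chromosome 16 from 10170321 to 10175004. It was listed at 0 in both knockout NPC libraries, against 11.8 and 12.7 FPKM in knockout ESC, and it had 0.1 and 0.4 FPKM in wild-type NPC, against 18.3 and 16.4 in wild-type ESC. It passed as lower in knockout NPC (adjusted p = 8.12e-07) and in wild-type NPC (-3.88 ± 0.13, adjusted p = 6.98e-07). Rpl39 itself had 920.0 and 1008 FPKM in knockout NPC against 1113 and 1255 in knockout ESC, and 927 and 1139 in wild-type NPC against 892 and 986 in wild-type ESC. It did not pass in knockout (-0.30 ± 0.12, adjusted p = 0.0641) or wild-type cells (0.13 ± 0.12, adjusted p = 0.36). Rpl3l, the muscle form of Rpl3, was listed at 0 in both knockout NPC libraries against 1.7 and 1.9 FPKM in knockout ESC, and it had 0.0 and 0.1 FPKM in wild-type NPC against 0.4 and 1.9 in wild-type ESC. It passed in both genotypes (adjusted p = 0.00397 in knockout and 0.0299 in wild-type cells). Its wild-type call was lost without library 2 of wild-type ESC (-0.38, adjusted p = 0.067) and without either library of wild-type NPC (adjusted p = 0.126 and 0.0757). Rpl3, a 60S protein close to the peptidyl transferase centre, had 913 and 913 FPKM in knockout NPC against 1154 and 1234 in knockout ESC, and 933 and 1010.2 in wild-type NPC against 1080.4 and 1114 in wild-type ESC. It passed in knockout cells (-0.39 ± 0.08, adjusted p = 0.00271) and not in wild-type cells (-0.18 ± 0.08, adjusted p = 0.0683).

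Rps4l, which the annotation calls a pseudogene of Rps4x, was well expressed in ESC. It had 109.5 and 102 FPKM in knockout NPC against 505 and 542 in knockout ESC, and 86.7 and 100.1 FPKM in wild-type NPC against 508 and 547 in wild-type ESC. The groups did not overlap, and the difference was -2.29 ± 0.09 (adjusted p = 1.08e-06) in knockout and -2.49 ± 0.09 (adjusted p = 7.65e-07) in wild-type cells. Rps4x, a 40S protein near the mRNA entry, had 1299.7 and 1269 FPKM in knockout NPC against 1651 and 1854 in knockout ESC, and 1396 and 1509 in wild-type NPC against 1678 and 1787 in wild-type ESC. Its differences were -0.45 ± 0.09 in knockout (adjusted p = 0.00328) and -0.25 ± 0.09 in wild-type cells (adjusted p = 0.0361). The wild-type call of Rps4x held in 2 of the 8 fits that each left out 1 library, namely those without a knockout ESC library, and adjusted p ran from 0.0575 to 0.170 in the rest. The share of Rps4l in the sum of the pair was 7.47% and 7.77% in knockout NPC against 22.6% and 23.4% in knockout ESC, and 5.85% and 6.22% in wild-type NPC against 23.2% and 23.4% in wild-type ESC.

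Rpl7l1, an Rpl7-like gene on chromosome 17, had 44.3 and 48.1 FPKM in knockout NPC against 122.5 and 124 in knockout ESC, and 49.4 and 42.1 in wild-type NPC against 118 and 129 in wild-type ESC. It fell, with differences of -1.40 ± 0.09 (adjusted p = 1.17e-05) in knockout and -1.42 ± 0.09 (adjusted p = 9.94e-06) in wild-type cells. Rpl7, its partner, also fell, with -0.49 ± 0.09 (adjusted p = 0.00165) in knockout and -0.32 ± 0.09 (adjusted p = 0.0121) in wild-type cells. The wild-type call of Rpl7 was lost without library 2 of wild-type ESC (adjusted p = 0.0549) or library 1 of wild-type NPC (0.0762). Rpl36al, whose model has 2 exons against 5 in Rpl36a, had 255 and 241 FPKM in knockout NPC against 504 and 529 in knockout ESC, and 232 and 288 in wild-type NPC against 474 and 504 in wild-type ESC. Its differences were -1.06 ± 0.10 (adjusted p = 8.47e-05) and -0.92 ± 0.10 (adjusted p = 0.00016). Rpl36a passed in knockout cells (-0.51 ± 0.11, adjusted p = 0.00442) and not in wild-type cells (-0.14 ± 0.11, adjusted p = 0.276). Rps27l, a target of p53, had 256 and 254 FPKM in knockout NPC against 436 and 508 in knockout ESC, and 213 and 231 in wild-type NPC against 363 and 409.6 in wild-type ESC. It differed by -0.88 ± 0.10 (adjusted p = 0.000146) in knockout and by -0.79 ± 0.10 (adjusted p = 0.000227) in wild-type cells. For Rpl7l1, Rpl36al and Rps27l, as for Rps4l, every NPC library was below every ESC library.

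Rpl22l1 was the exception. This paralog of Rpl22, an RNA-binding protein of the 60S subunit, had 228 and 219 FPKM in knockout NPC against 212 and 223 in knockout ESC, and 215 and 244 in wild-type NPC against 182 and 192 in wild-type ESC. It rose in wild-type cells (0.29 ± 0.08, adjusted p = 0.0115) and did not pass in knockout cells (0.04 ± 0.08, adjusted p = 0.678). The rise was lost without library 1 of wild-type ESC or library 2 of wild-type NPC (adjusted p = 0.0643 and 0.0603) and under median-ratio scaling (0.15, adjusted p = 0.122). Rpl22l1 was the more abundant gene of its pair in every library, at 56.6% to 64.2% of their sum. Rpl22 had 129 and 137 FPKM in knockout NPC against 153 and 158 in knockout ESC, and 130.1 and 136 in wild-type NPC against 139.7 and 142 in wild-type ESC. On FPKM as deposited, no paralog passed a test of knockout against wild type in ESC or in NPC, or of the difference between the stages. After scaling to the median ribosomal protein gene, limma called Rps27l (0.31, adjusted p = 0.0126) and Rps4l (0.29, adjusted p = 0.0292) higher in knockout than in wild-type NPC. The difference between the stages then passed for Rps4l (0.48, adjusted p = 0.0218).

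**Figure D3:**
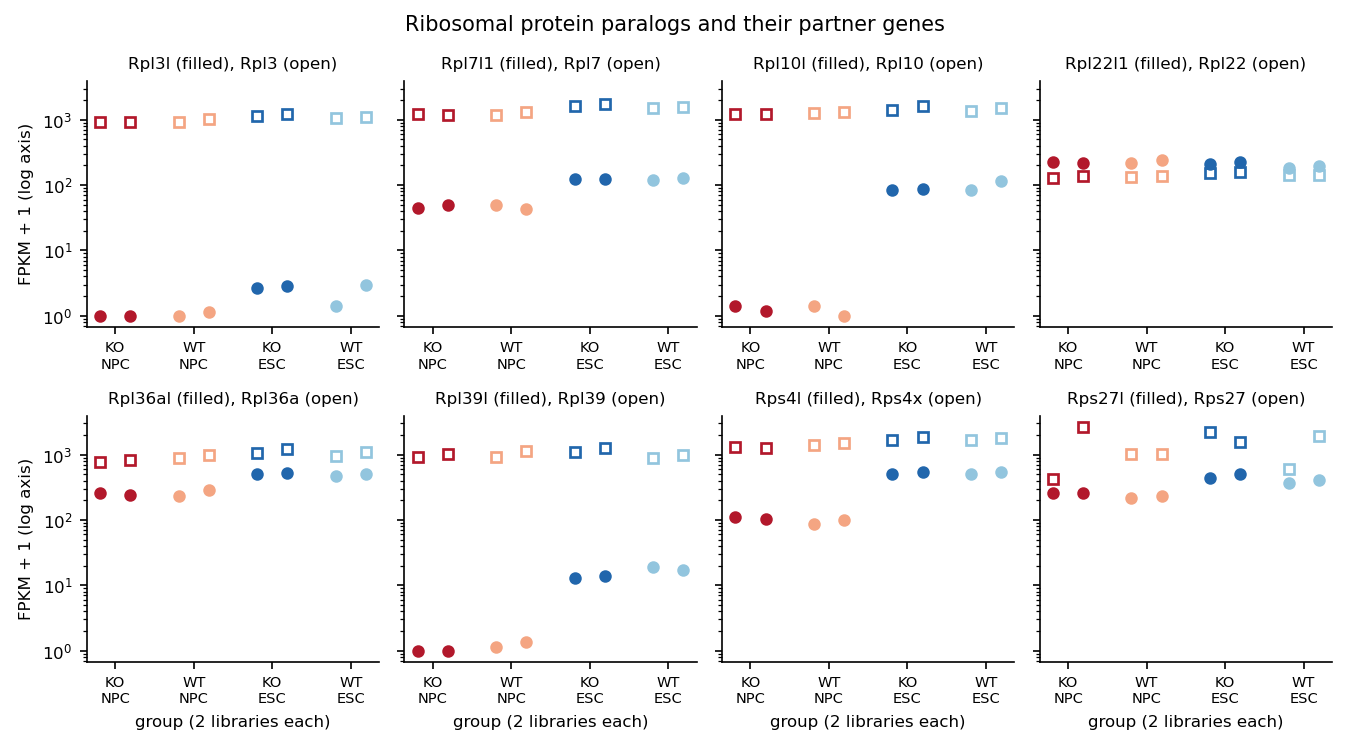
FPKM + 1 (log axis) of each paralog (filled circles) and its partner gene (open squares) in 2 libraries of each group. In both genotypes 7 of the 8 paralogs sit lower in the NPC libraries, with Rpl10l at 0.42 FPKM or less there, and several partners, such as Rpl7, Rps4x and in knockout cells Rpl36a, lie somewhat lower there too.

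Core genes had smaller differences than most paralogs. In knockout cells 58 of the 76 core genes tested passed as lower in NPC and 0 as higher, with a median log2 difference of -0.44, where the median over all tested genes was 0.17. In wild-type cells 25 passed as lower and 3 as higher, with a median of -0.16 and a median over all genes of 0.15. Of all tested genes, 28.8% were called lower and 41.6% higher in knockout cells, and 31.1% and 41.6% in wild-type cells. The wild-type count of lower core genes was thus near the share of all genes. The 24 genes that passed as lower in both genotypes are 96% of the wild-type list and 41.4% of the knockout list. Rpl19 was the 1 core gene that passed as lower in wild-type cells alone (adjusted p = 0.00547). In knockout cells it was close to the threshold (adjusted p = 0.0554), and its knockout effect did not pass as different between the stages (adjusted p = 0.414). The difference was more negative in knockout than in wild-type cells for 74 of the 76 genes, which is the contrast between stages given further on. Core genes moved together between libraries of a group, so this does not count separate changes. The share of all genes with this sign was not computed. Both knockout NPC libraries were below both knockout ESC libraries for 74 of the 85 members, where this held for 35.5% of all genes, and above them for 0, against 50.1% of all genes. Both wild-type NPC libraries were below both wild-type ESC libraries for 48 members, against 37.5% of all genes, and above them for 11, against 48.7%. Summed levels of the marker lists differed between NPC and ESC, the neural lists being lower in knockout NPC than in ESC and higher in wild-type NPC, and their part in these differences was not tested. By subunit, 23 of 31 40S genes and 35 of 45 60S genes passed as lower in knockout cells, against 28.8% of all tested genes. In wild-type cells 8 and 17 passed, against 31.1% of all genes.

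**Figure D4:**
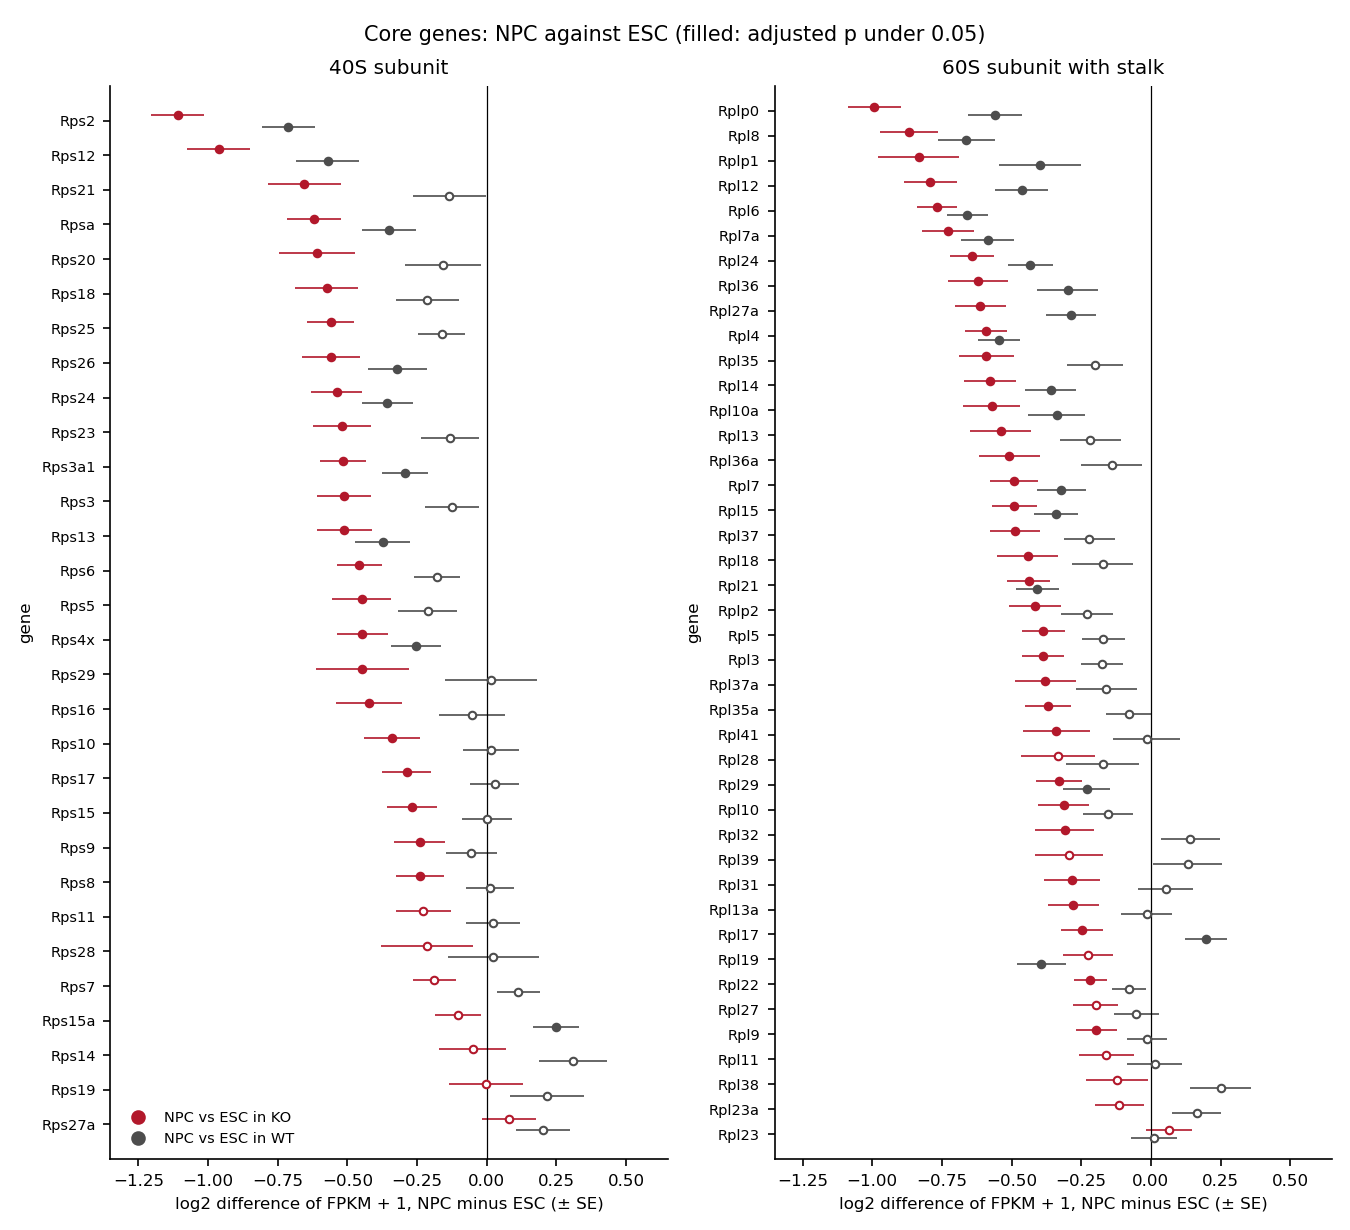
Log2 difference of FPKM + 1 between NPC and ESC (± standard error from limma) for core genes of the 40S subunit (left) and of the 60S subunit with the stalk (right), in knockout (red) and wild-type cells (grey), with filled points past an adjusted p of 0.05. The 4 genes with a second entry on their span are among those not drawn. Rps2, Rps12, Rplp0 and Rpl8 lie lowest in knockout cells, and most knockout points lie left of the wild-type points.

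The stalk, whose proteins touch the translation factors, held some of the clearest falls. Rplp0, its base, on chromosome 5 from 116009476 to 116013738, had 894 and 897 FPKM in knockout NPC against 1661 and 1914 in knockout ESC, and 1022 and 1093 in wild-type NPC against 1487 and 1632 in wild-type ESC. The difference was -0.99 ± 0.10 (adjusted p = 7.36e-05) in knockout and -0.56 ± 0.10 (adjusted p = 0.00134) in wild-type cells. Rplp1 fell too, with differences of -0.83 ± 0.15 in knockout (adjusted p = 0.0016) and -0.40 ± 0.15 in wild-type cells (adjusted p = 0.0412). The wild-type call of Rplp1 was lost without library 2 of wild-type ESC (adjusted p = 0.224), without either wild-type NPC library (0.196 and 0.0748) and without either knockout NPC library (0.0658 and 0.065). Rplp2, the partner of Rplp1 in the stalk dimer, had 985 ± 58.9 FPKM in knockout NPC and 1313 ± 57.9 in knockout ESC, and it fell (-0.42 ± 0.09, adjusted p = 0.00561). In wild-type cells Rplp2 did not pass (-0.23 ± 0.09, adjusted p = 0.06).

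In the 40S subunit, Rps2, which lines the mRNA entry site, had the largest core fall. It lies on chromosome 17 from 24857008 to 24858872 and had 1024 and 905 FPKM in knockout NPC against 2001 and 2154 in knockout ESC, and 1066 and 1170.3 in wild-type NPC against 1796 and 1863 in wild-type ESC. The groups were far apart, with a difference of -1.11 ± 0.10 (adjusted p = 4.01e-05) in knockout and -0.71 ± 0.10 (adjusted p = 0.000357) in wild-type cells. Rps12, a 40S protein at the beak, had 1785 and 1901 FPKM in knockout NPC against 3354 and 3841 in knockout ESC, and 1917 and 2212 in wild-type NPC against 2970.1 and 3151 in wild-type ESC. Rpsa, which is also known as the laminin receptor, had 855 ± 2.66 FPKM in knockout NPC and 1317 ± 123 in knockout ESC, a fall of -0.62 ± 0.10 (adjusted p = 0.00087). In wild-type cells Rpsa fell as well (-0.35 ± 0.10, adjusted p = 0.013), a call that was lost without library 2 of wild-type ESC (adjusted p = 0.0784) or library 1 of wild-type NPC (0.0799). Rps26, which contacts the mRNA upstream of the start codon, differed by -0.56 ± 0.10 in knockout (adjusted p = 0.00233) and by -0.32 ± 0.10 in wild-type cells (adjusted p = 0.0271). The wild-type call of Rps26 was lost in 5 of the 8 fits with a library left out, with adjusted p up to 0.161 without library 1 of wild-type NPC. Rps19, which is mutated in many patients with Diamond-Blackfan anaemia, did not pass in either genotype. It had 743 and 798 FPKM in knockout NPC against 705 and 844 in knockout ESC, and 680 and 731 in wild-type NPC against 539 and 683 in wild-type ESC.

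In the 60S subunit, Rpl8, near the peptidyl transferase centre, had 1012 and 1046 FPKM in knockout NPC against 1750.4 and 2014 in knockout ESC, and 985 and 1094 in wild-type NPC against 1558 and 1733 in wild-type ESC. Rpl6 had 721 and 739 FPKM in knockout NPC against 1190.2 and 1299 in knockout ESC, and 754 and 764 in wild-type NPC against 1175 and 1222 in wild-type ESC. Both passed in both genotypes, with differences of -0.87 ± 0.10 and -0.66 ± 0.10 for Rpl8 and of -0.77 ± 0.07 and -0.66 ± 0.07 for Rpl6 in knockout and wild-type cells. Rpl7a and Rpl4 fell as well, with differences of -0.73 ± 0.10 and -0.59 ± 0.07 in knockout and of -0.59 ± 0.10 and -0.55 ± 0.07 in wild-type cells. Rpl5 and Rpl11, which form a particle with 5S ribosomal RNA that can bind Mdm2 and stabilise p53, were called differently in knockout cells. Rpl5 had 506 and 514 FPKM in knockout NPC against 639 and 697 in knockout ESC (-0.39 ± 0.08, adjusted p = 0.003), and Rpl11 had 1232 and 1307 against 1337 and 1503 (-0.16 ± 0.10, adjusted p = 0.187). In wild-type cells neither passed (adjusted p = 0.0797 for Rpl5 and 0.911 for Rpl11), and the difference between the 2 genes was not tested. Rpl38, which is needed in the mouse for the translation of Hox mRNAs, did not pass in either genotype, with 2542 ± 177 FPKM in knockout NPC, 2768 ± 244 in knockout ESC, 2620 ± 240 in wild-type NPC and 2198 ± 48.5 in wild-type ESC.

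Of the 3 core genes that rose in wild-type NPC, Rps15a and Rpl17 did so by a small amount. Rps15a had 95.9 and 103 FPKM in wild-type NPC against 81.0 and 86.5 in wild-type ESC (0.25 ± 0.08, adjusted p = 0.0282), and Rpl17 had 1027 and 1065 FPKM in wild-type NPC against 889 and 934 in wild-type ESC (0.20 ± 0.08, adjusted p = 0.0462). The groups did not overlap for either gene, and each call was lost in at least 2 of the 8 fits with a library left out, with adjusted p up to 0.134 for Rps15a and 0.187 for Rpl17. Neither passed as higher with median-ratio scaling. With entries merged, Rps27 also passed as higher in wild-type NPC (0.25 ± 0.09, adjusted p = 0.0433) and as lower in knockout NPC (-0.32 ± 0.09, adjusted p = 0.0164), and Rpl34 rose in wild-type NPC (0.27 ± 0.08, adjusted p = 0.0238). The fall of Rpl34 alone in knockout NPC (-0.93 ± 0.26, adjusted p = 0.0153), counted among the 58, was lost in the merged sum (-0.14 ± 0.08, adjusted p = 0.186) and without either library of knockout NPC (adjusted p = 0.0726 and 0.0513). Rpl30, which did not pass alone in knockout NPC (0.78 ± 0.51, adjusted p = 0.21), passed as lower in the merged sum (-0.58 ± 0.10, adjusted p = 0.00143).

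How many core genes fell depended on how the libraries were scaled. FPKM divide by all mapped fragments, and short RNA genes, which reach high FPKM on few fragments, took 24.0% to 40.3% of the FPKM sum of a library, with the highest share in library 1 of knockout ESC. In wild-type cells the 25 core genes lower and 3 higher became 40 and 0 with median-ratio scaling, 16 and 20 after rescaling to the sum less short RNA genes, 17 and 15 after scaling to the median ribosomal protein gene and 6 and 27 with quantile normalization. In knockout cells the 58 lower and 0 higher became 69 and 0, 35 and 2, 11 and 21, and 8 and 15 in the same order. The median over all tested genes moved with the scaling too, in wild-type cells from 0.15 to 0.03 with median-ratio scaling, 0.29 after the short RNA rescaling, 0.28 after scaling to the median ribosomal protein gene and -0.01 with quantile normalization. In knockout cells it was 0.17 as deposited and 0.02, 0.38, 0.54 and 0.00 in that order. A fall of the core genes as a group is thus a statement about these units. A fall relative to all genes was turned in wild-type cells by quantile normalization, and not by the short RNA rescaling. In wild-type cells the median over all members was 0.0813 with quantile normalization, above the -0.01 of all genes. After the short RNA rescaling it was 0.0017, below the 0.29 of all genes. In knockout cells the median over all members was 0.0007 after scaling to the median ribosomal protein gene, below the 0.54 of all genes. The share of all genes called under each of the other scalings was not computed.

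**Figure D5:**
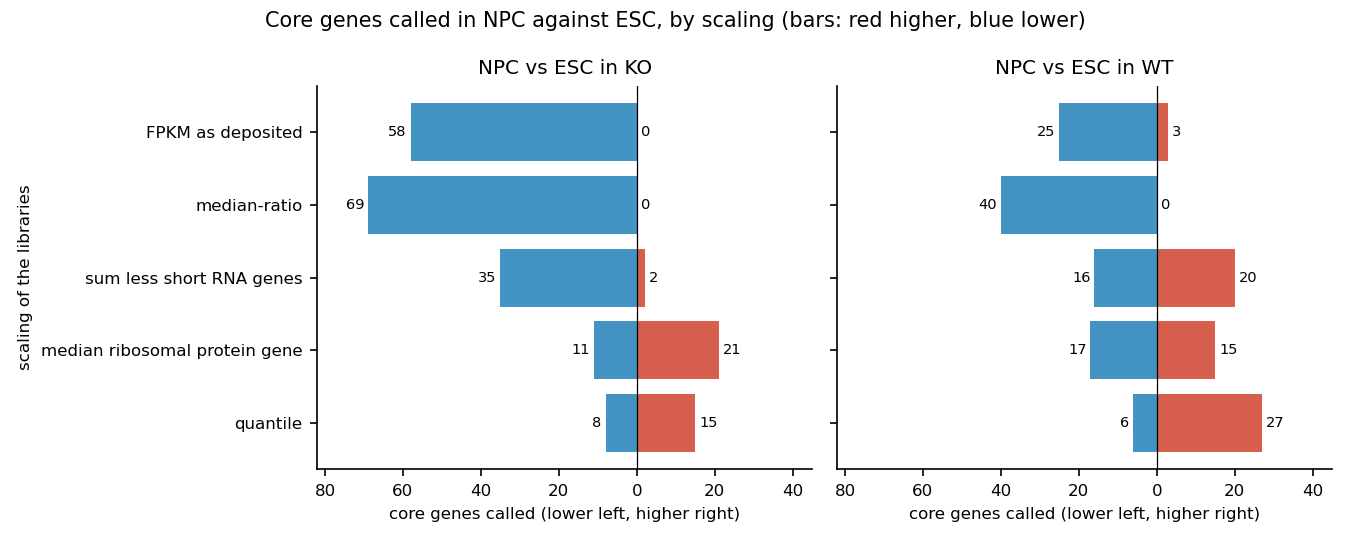
Number of core ribosomal protein genes called lower (blue, to the left) and higher (red, to the right) in NPC against ESC under 5 scalings of the libraries, in knockout (left panel) and wild-type cells (right panel). The lower calls run from 8 to 69 in knockout cells and from 6 to 40 in wild-type cells, and the higher calls from 0 to 21 and from 0 to 27.

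A subset kept its direction and its call in both genotypes under all 5 scalings, always as lower in NPC. These 12 members were the 7 paralogs Rpl3l, Rpl7l1, Rpl10l, Rpl36al, Rpl39l, Rps4l and Rps27l, and the core genes Rpl6, Rpl7a, Rpl8, Rplp0 and Rps2. Rpl4 was added in wild-type cells alone, and Rplp1, Rps12 and Rps6kl1 in knockout cells alone. No member passed as higher under all 5 scalings. Of the 12, Rpl3l rests on 0 to 22 implied fragments in a library, and its wild-type call did not hold in every fit with a library left out. The share of all tested genes that kept a call under all 5 was not computed, so the 12 cannot be set against it. With quantile normalization, which gave the fewest lower calls, Rps2 was still lower, with differences of -0.67 in knockout (adjusted p = 0.00226) and -0.48 in wild-type cells (adjusted p = 0.0105).

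Between knockout and wild-type ESC no member passed the test by limma, in either direction, where 0.128% of all tested genes were called higher and 0.12% lower. Of the 85, 21 had an unadjusted p under 0.05, and the share of all genes at that limit was not computed. The values were higher in knockout ESC for 78 of the 85, with a median log2 difference of 0.18, and the median over all genes was -0.01. Both knockout libraries were above both wild-type libraries for 51 members, against 19.5% of all genes, and below them for 2, against 24.7%. The smallest adjusted p was that of Rpl23a (0.208), with 2941 and 3208 FPKM in knockout ESC against 2351 and 2420 in wild-type ESC (0.36 ± 0.09). All 31 40S genes had positive differences, with a median of 0.23, as had 42 of 45 60S genes, with a median of 0.16, while the 8 paralogs were split evenly, 4 and 4. The core genes also moved together within groups, since library 2 was above library 1 for 73 of 75 core genes in knockout ESC, 67 in wild-type ESC, 52 in knockout NPC and 74 in wild-type NPC, against 47.2% to 49.5% of all genes. The median of 0.18 was 0.01 after quantile normalization and after scaling to the median ribosomal protein gene.

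Between knockout and wild-type NPC no member passed as higher, where 14.7% of all genes did, and 1 passed as lower, where 12.7% did. That 1 was Rps6kl1, which is no ribosomal protein gene. It lies on chromosome 12 from 86476546 to 86492214 and had 0.07 and 0.07 FPKM in knockout NPC against 1.03 and 1.69 in wild-type NPC (-1.13 ± 0.16, adjusted p = 0.00247). In knockout ESC it had 1.28 and 1.64 FPKM against 1.51 and 1.38 in wild-type ESC. Between 2 and 43 fragments lie behind a value of this gene, and it was not tested where an FPKM of 5 was required. Of the 84 ribosomal protein genes tested, 17 had positive and 67 negative differences, and the median was -0.07 with a median over all genes of 0.05. Unadjusted p was under 0.05 for 5 of the 84, and the share of all genes at that limit was not computed. Both knockout libraries were below both wild-type libraries for 41 members, against 27.0% of all genes, and above them for 7, against 36.6%. Neuron and erythroid markers moved with genotype in NPC as given above, and their part in these values was not tested. After the short RNA rescaling 7 members passed as lower, after scaling to the median ribosomal protein gene 5 as higher and 1 as lower, and no higher or lower call other than that of Rps6kl1 was made under all 5 scalings.

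The difference between the stages in the effect of the knockout was negative for 79 of the 85 members, with a median of -0.25 and a median over all genes of 0.06. This count includes the core genes counted above for the same contrast, and the share of all genes with this sign was not computed. It passed for 2 members, both lower, where 8.39% of all genes passed as lower and 8.41% as higher. Rpl17, a 60S protein at the exit tunnel on chromosome 18 from 75160131 to 75163035, had 863 and 917 FPKM in knockout NPC against 1027 and 1065 in wild-type NPC, and 1019 and 1094 in knockout ESC against 889 and 934 in wild-type ESC. It was lower in knockout NPC and higher in knockout ESC with no overlap, and the difference was -0.45 ± 0.11 (adjusted p = 0.0307). That call held in 1 of the 8 fits with a library left out, the fit without library 1 of knockout ESC, and adjusted p was 0.0621 to 0.112 in the others. Rps6kl1 was the second, at -1.13 ± 0.23 (adjusted p = 0.0171), and it was lost without library 2 of either ESC group (adjusted p = 0.0649 and 0.0577) and without either knockout NPC library (0.0537 and 0.0524). With entries merged the Rps27 sum passed too (-0.57 ± 0.13, adjusted p = 0.0267).

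Fau and Gnb2l1 are genes of the cytosolic ribosome whose symbols the rule does not match, and they encode Rps30 as a fusion with a ubiquitin-like protein and the scaffold protein Rack1. Fau had 748 and 693 FPKM in knockout NPC against 745 and 826 in knockout ESC, and 816 and 847 in wild-type NPC against 648 and 695 in wild-type ESC. It rose in wild-type cells (0.31 ± 0.08, adjusted p = 0.0118) and did not pass in knockout cells (-0.12 ± 0.08, adjusted p = 0.214), and its knockout effect differed between the stages (-0.43 ± 0.12, adjusted p = 0.0467). The rise was lost without library 1 of wild-type ESC or library 2 of wild-type NPC (adjusted p = 0.0708 and 0.063), and the difference held only in the fit without library 1 of knockout ESC, with adjusted p of 0.0765 to 0.141 in the 7 others. Gnb2l1 passed no test. It had 1233 and 1227 FPKM in knockout NPC against 1291 and 1406 in knockout ESC, and 1116 and 1152 in wild-type NPC against 1052 and 1213 in wild-type ESC.

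The genes that build ribosomes had larger median differences than the ribosomal protein genes. The counts here stand against 28.8% of all tested genes called lower and 41.6% higher in knockout cells, and 31.1% lower and 41.6% higher in wild-type cells. Of 57 ribosome biogenesis genes, 53 passed as lower in NPC in each genotype, with 1 higher in knockout and 0 in wild-type cells, and the median difference was -1.29 in knockout and -1.28 in wild-type cells. Nop2, which methylates the RNA of the large subunit in yeast and human, had 29.2 ± 2.53 FPKM in wild-type NPC and 121 ± 2.43 in wild-type ESC (-2.01 ± 0.07, adjusted p = 8.29e-07). Rrp9, a protein of the U3 particle that processes the ribosomal RNA precursor, had 11.9 ± 0.381 FPKM in knockout NPC and 56.7 ± 4.77 in knockout ESC (-2.16 ± 0.09, adjusted p = 1.37e-06). Of 12 genes of RNA polymerase I and its factors, which transcribe the ribosomal RNA genes, 11 passed as lower in each genotype. Rrn3, the initiation factor of this polymerase, fell to 22.8 ± 0.269 FPKM in knockout NPC, against 92.7 ± 3.42 in knockout ESC, and to 33.6 ± 0.154 in wild-type NPC, against 95.8 ± 1.43 in wild-type ESC. It was also lower in knockout than in wild-type NPC (-0.54 ± 0.06, adjusted p = 0.000776).

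Other genes of translation fell in part. Of 27 initiation factor genes, 19 passed as lower and 3 as higher in knockout NPC against ESC, and 18 and 1 in wild-type cells. Eif2s2, a subunit of the factor that brings the initiator tRNA, had 106 ± 0.208 FPKM in knockout NPC and 456 ± 18.8 in knockout ESC (-2.09 ± 0.06, adjusted p = 3.96e-07). Of 7 elongation factor genes, 7 passed as lower in knockout and 5 in wild-type cells, among them Eif5a, with 516 ± 18.0 FPKM in knockout NPC and 1075 ± 21.8 in knockout ESC (-1.06 ± 0.06, adjusted p = 6.98e-06). All 7 host genes of small nucleolar RNAs passed as lower in wild-type and 6 in knockout cells. Other mRNAs with a TOP tract were split, with 6 lower and 4 higher of 11 in knockout and 5 lower and 4 higher in wild-type cells, which is near the shares of all genes for the higher calls. Among them Pabpc1, the poly(A)-binding protein, had 234 ± 7.66 FPKM in knockout NPC and 670.0 ± 15.1 in knockout ESC (-1.51 ± 0.10, adjusted p = 1.2e-05), while the intermediate filament gene Vim had 388 ± 1.84 FPKM in wild-type NPC and 125 ± 6.48 in wild-type ESC (1.63 ± 0.11, adjusted p = 9.94e-06). Of 77 mitochondrial ribosomal protein genes, 45 passed as lower and 7 as higher in knockout and 41 and 6 in wild-type cells, with medians of -0.36 in both. Of 13 regulators around mTOR and MYC, 6 passed as lower and 3 as higher in each genotype. The lists of TOP mRNAs and of these regulators are short and split in direction, and nothing is read from their counts.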

How the data were processed

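Directional poly(A) RNA-seq libraries were analysed, 8 in all. Per the submitters' processing notes, reads were handled with TopHat2 2.1.1 and Cufflinks 2.2.1 on mm9, and the authors deposited FPKM with 95% bounds for 24854 entries per table and no counts. Entries of 1 symbol were summed, and 12 symbols that Cufflinks marked as failed were left out (24306 of 24318 stayed). A gene entered the tests when 2 or more libraries had an FPKM of 1 or above, which left 13318 genes and 85 of the 86 members, all but Rpl26. Their log2(FPKM + 1) values were fitted in R 4.3.3 by limma 3.58.1 with a mean for each of the 4 groups over all 8 libraries, a trend of variance on level, and 4 degrees of freedom left for the residuals. Tests were two-sided, and a gene was called at a Benjamini-Hochberg adjusted p under 0.05 over all 13318. The script was tested on simulated data. Fragment numbers behind a value were taken from the upper bound, read as 2 square roots of the fragment number above the value. Of the entries with 1 start site and under 5 such fragments, 62.2% to 66.4% came out whole within 0.05, so these numbers are approximate, and the depth they give covers counting error only. Entries with more start sites or more fragments were not checked. Sequences are from GENCODE M21 and RefSeq, aligned with Biopython 1.88. Because no mm9 annotation was used here, positions of genes are those of the tables and were not converted.

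The members, gene lists and tests were chosen with earlier results of these data known. The text names the paralogs with their partners, Rps26, Rps6kl1, Rpl5, Rpl11, Rps19, Rpl38, Rpsa, the stalk genes, Fau and Gnb2l1, up to 6 called rises and falls per comparison, the 3 highest and lowest core genes, up to 3 called genes per related list, and Dcaf7. Rps2, Rps12, Rpl4, Rpl6, Rpl7a, Rpl8, Rpl19 and the second entries were named after their values were seen. Some genes that this choice covers are not reported here by name. There were 17 listed alternatives, 8 of which leave out 1 library each, and 2 added after the data were seen (scaling to the median ribosomal protein gene, merged entries). The replicate number was used as a block only as an alternative.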

Additional observations from a re-analysis of the deposited data

Results flagged for a closer look

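For 3 genes the effect of the knockout differed between NPC and ESC by limma's test of that difference. They are the 60S gene Rpl17 (-0.45, adjusted p = 0.0307), the ubiquitin-like fusion gene Fau (-0.43, adjusted p = 0.0467) and the kinase-like gene Rps6kl1 (-1.13, adjusted p = 0.0171). For Rpl17 and Fau both knockout libraries lay below both wild-type libraries in NPC and above them in ESC. Rps6kl1 had 0.07 and 0.07 FPKM in knockout NPC against 1.03 and 1.69 in wild-type NPC, and overlapping levels in ESC. With 1 library left out, the call held in 1 of 8 fits for Rpl17, 1 of 8 for Fau and 4 of 8 for Rps6kl1. What lies behind these differences was not tested.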

How the results depend on the processing

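Over 245 values of named genes under 17 listed and 2 added alternatives, 4363 of 4645 results stayed on their side of the threshold. Of the rest, 153 lost a call, 92 gained one and 37 changed sign with a call before or after. Sign changes with no call in either fit are among the 4363. No alternative gave a call among the 86 members between knockout and wild-type ESC. Between knockout and wild-type NPC the 1 lower call became 2 with a pseudocount of 0.1 or median-ratio scaling, 0 at an FPKM minimum of 5, 3 with quantile normalization and 7 after the short RNA rescaling, and 5 genes were higher after scaling to the median ribosomal protein gene. In wild-type NPC against ESC the 4 higher calls became 1 with no filter, 0 with median-ratio scaling, 28 with quantile normalization, 21 after the short RNA rescaling, 16 after scaling to the median ribosomal protein gene and 7 with entries merged, and the 32 lower calls became 18 with no filter and 14 with quantile normalization. In knockout cells higher calls were 16 with quantile normalization, 3 after the short RNA rescaling and 22 after scaling to the median ribosomal protein gene, and the 66 lower calls became 16, 43 and 19. For the difference between stages the 2 lower calls became 0 with no filter, 1 at an FPKM minimum of 5, 1 with quantile normalization, 5 after the short RNA rescaling, and 1 after scaling to the median ribosomal protein gene, which also gave 3 higher calls. The labels give libraries of different groups the same numbers without saying what they share. Over all tested genes, same-numbered libraries had correlations of -0.05 to 0.18 in their deviations from the group means, so the numbers were not taken to pair the samples, although library 2 was above library 1 for 52 to 74 of 75 core genes in every group. With the replicate number as a block, lower calls were 5 for knockout against wild-type NPC and 14 for the difference between stages, and higher calls 8 in wild-type NPC against ESC. Except for the smaller set tested at an FPKM minimum of 5, the cause was not tested.

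Leaving out 1 library each gave 18 to 32 lower and 0 to 5 higher calls in wild-type NPC against ESC (18 without library 1 of wild-type NPC, 20 without library 2 of wild-type ESC), 48 to 68 lower and 0 to 1 higher in knockout cells, 1 to 2 lower for knockout against wild-type NPC, and 0 to 5 lower for the difference between stages (5 without library 1 of knockout ESC, 0 without either knockout NPC library). The lone library of a group is then assumed to vary like the others.

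Signs turned as follows, for named genes only where a call was made before or after. Scaling to the median ribosomal protein gene sets the members' own median near 0 and gave medians of 0.0393 for knockout against wild-type NPC, 0.0007 for knockout NPC against ESC and 0.0258 for the difference between stages. The wild-type median in NPC against ESC became 0.0813 with quantile normalization and 0.0017 after the short RNA rescaling. In wild-type cells quantile normalization gave Rpl22 0.29 and Rplp1 0.10, and merged entries gave Rps27 0.25 and Rpl34 0.27. In knockout cells quantile normalization gave Rpl10 0.13, Rpl11 0.29, Rpl17 0.21, Rpl22 0.18, Rpl3 0.0262, Rpl38 0.37, Rplp2 0.0233, Rps19 0.43, Rps4x 0.0757, Rpl19 0.31, Rpl23a 0.50, Rpl32 0.21, Fau 0.30 and Gnb2l1 0.33, and merged entries gave Rpl30 -0.58. Scaling to the median ribosomal protein gene gave Rpl10 0.14, Rpl11 0.29, Rpl17 0.20, Rpl22 0.23, Rpl3 0.0639, Rpl38 0.33, Rpl5 0.063, Rplp2 0.0348, Rps15a 0.34, Rps19 0.45, Rps4x 0.0041, Rpl19 0.23, Rpl23a 0.34, Rpl32 0.14, Fau 0.33 and Gnb2l1 0.32, and the short RNA rescaling gave Rpl17 0.0049 and Rpl22 0.0333. A core gene rested on a median of about 5720 fragments, and the 2 libraries a group leave 4 residual degrees of freedom; how far each limits the calls was not tested.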
